A study of Mus musculus with 16 samples.

Results

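A CXCR2 inhibitor was added to mouse hepatocytes that shared their culture with Phgdh knockout cancer cells, and the hepatocyte libraries with the inhibitor were compared with those of the same co-culture without it. The 7 libraries were chosen by their labels, 4 with the inhibitor and 3 without, out of 16 in the study. All 54532 genes of the deposited table belong to the comparison, and 11395 of them had a mean of at least 1 FPKM (fragment counts scaled for gene length and library depth) over the 16 libraries and were tested. The other 9 libraries came from hepatocytes cultured alone (3), from hepatocytes with Phgdh wild-type cancer cells (3) and from that wild-type co-culture with the inhibitor (3). The sample labels name mouse hepatocytes as the source of every library and as a cell line, whereas the series' design text speaks of the cancer cells (HY19636, of pancreatic origin by the series' title) as the cells sequenced. The compound, its dose, its vehicle and the time of exposure are not stated in the sources used here. Nor are the hepatocytes' strain or donor, whether and how both cell types were kept apart, and whether the knockout is 1 clone. Nothing says that replicates came from separate cultures, so p-values measure the spread between these libraries, which may be technical.

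CXCR2 is a G protein-coupled receptor for chemokines such as Cxcl1, Cxcl2 and Cxcl5, and it also binds the cytokine Mif; it is best known on neutrophils, which it draws to inflamed tissue. Hepatocytes are the main epithelial cells of the liver and are known for secreting plasma proteins, for clearing foreign compounds and for supplying other tissues with glucose and amino acids. Phgdh carries out the first step of serine synthesis from glucose, followed by Psat1 and Psph, and Shmt1 and Shmt2 interconvert serine and glycine.

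Phgdh (chr3:98313170-98339990) was read in every library. It stood at 193, 201 and 197 FPKM in the knockout co-culture and at 157, 157, 149.6 and 146 FPKM with the inhibitor, beside 207, 207 and 203 FPKM in hepatocytes alone and 199, 206 and 195 FPKM next to wild-type cells. These are levels in libraries labelled hepatocytes, so they do not check the genotype of the cancer cells. The receptor was close to undetected: Cxcr2 was at 0, 0 and 0.0727 FPKM in the 3 libraries without the inhibitor and listed at 0 in the 4 with it, and its relative Cxcr1 was listed at 0 in all 7.

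The hepatocyte label was checked against 12 marker genes. Of these, 2 (Asgr1, a hepatocyte surface receptor, and Cyp2e1, a cytochrome P450) stayed under 1 FPKM in all 7 libraries compared. In hepatocytes alone the 12 summed to 305 to 310 FPKM, and 8 of the 10 tested had a mean of at least 1 FPKM. Alb, the main plasma protein of the liver, read 57.8, 58.4 and 55.0 FPKM there. Apoa1 read 4.41, 2.43 and 2.53 FPKM, Fgb 3.17, 3.60 and 3.75 FPKM and Cps1 0.116, 0.293 and 0.220 FPKM. Some epithelial genes of bile duct and pancreatic duct cells were abundant in the same libraries. Spp1, a secreted matrix glycoprotein, read 1017, 1009.6 and 1019.6 FPKM in hepatocytes alone, and the keratin Krt19 99.9, 95.1 and 95.7 FPKM. Both belong to a list of 9 bile duct cell markers, of which 4 stayed under 1 FPKM in all 7 libraries compared. Of the 5 tested, 4 rose with the inhibitor and 1 fell, by the test described below. Summed over 15 markers of pancreatic ductal cancer epithelium, the level was 347 to 358 FPKM in hepatocytes alone, 231 to 246 FPKM in knockout co-culture and 655 to 683 FPKM with the inhibitor. Of these 15 markers, Tff1 and Agr2 were at 0 in all 7 libraries, 9 were under 1 FPKM in all 7, and the sum was mostly Msln and Krt19. The summed level of the 12 hepatocyte markers moved with it, being 194 to 209 FPKM without the inhibitor and 1039 to 1094 FPKM with it. The part of a second cell type in the results was not tested, and in bulk RNA fewer cells of a type and less RNA per cell cannot be told apart. Markers of other liver cells were near 0: the sums with the inhibitor were 0.120 to 0.278 FPKM over 11 stellate cell and fibroblast genes, 0.0555 to 0.207 FPKM over 8 endothelial genes, 0 to 0.194 FPKM over 9 neutrophil genes and 4.01 to 4.81 FPKM over 10 macrophage genes, where Cd68 supplied most of the sum and Clec4f, Adgre1 and Marco were at 0.

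The libraries with the inhibitor stood apart from all others in ways that reach across the genome. On the first principal component, which held 59.1% of the variance, the 7 inhibitor libraries of both genotypes lay between 34.8 and 38.1, the 6 co-cultures without it between -38.2 and -36.4, and hepatocytes alone between -11.6 and -11.4. Depth was similar, with about 18100000 to 21200000 recovered fragments per library without the inhibitor and 16100000 to 21300000 with it. Mitochondrial genes took 3.61 ± 0.319% of the fragments without the inhibitor (SD, n = 3) and 1.95 ± 0.0968% with it (SD, n = 4; two-sided exact permutation p = 0.0571, the smallest that 4 against 3 libraries can give). The median log2 fold change of the genes tested also differed from chromosome to chromosome. It was -0.32 on chromosome 11, -0.29 on chromosome 19 and -0.24 on chromosome 12, against 0.24 on chromosome 17, 0.19 on chromosome 4 and 0.17 on chromosome 16. Runs of about 60 neighbouring genes held the same sign along the whole of chromosome 11 (16 runs, medians from -0.44 to -0.12), chromosome 12 (6 runs, from -0.30 to -0.08) and chromosome 17 (10 runs, from 0.16 to 0.40). The same chromosome medians were seen with the inhibitor beside wild-type cells, from -0.34 to 0.23. Over 20 chromosomes their SD was 0.153 beside knockout cells and 0.154 beside wild-type cells, compared with 0.0317 for knockout co-culture against hepatocytes alone. The labels do not say whether the groups were grown or sequenced together, so whatever else set the 7 inhibitor libraries apart from the other 9 cannot be told apart from the inhibitor.

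**Figure D1:**
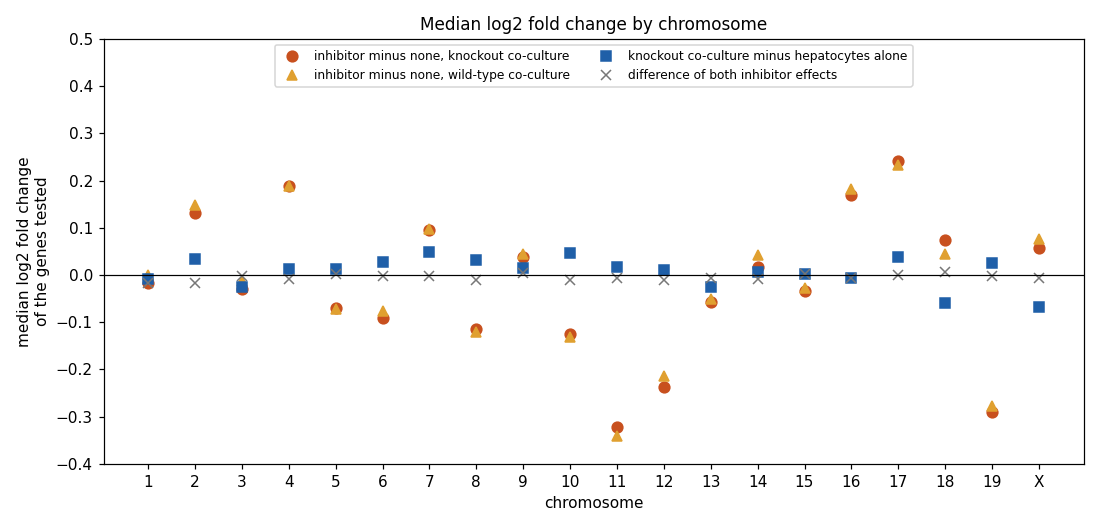
Median log2 fold change of the genes tested on each chromosome, on the log2(FPKM + 1) scale. The circles (inhibitor beside knockout cells) and triangles (inhibitor beside wild-type cells) run from about -0.3 on chromosome 11 to 0.24 on chromosome 17 and lie nearly on each other, while the squares (knockout co-culture minus hepatocytes alone) stay between -0.07 and 0.05.

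With the inhibitor, interferon-induced genes, class I antigen presentation genes, liver plasma proteins, detoxification enzymes, glycolytic genes and mitotic genes were higher beside knockout cells, and genes of the unfolded protein response, cytosolic ribosomal proteins and mitochondrially encoded genes were lower. By limma's test with Benjamini-Hochberg adjustment over 11395 genes, 7916 genes passed an adjusted p of 0.05 (69.5% of those tested), 3962 higher with the inhibitor (34.8%) and 3954 lower (34.7%). A change of at least 2-fold was reached by 888 of the higher genes (7.79% of those tested) and 354 of the lower ones (3.11%). In 4034 genes (35.4%) all 4 inhibitor libraries lay above all 3 without it, and in 4012 (35.2%) they lay below. The median over all genes tested was -0.01. Fold changes below are differences of mean log2(FPKM + 1), with inhibitor minus without, which understates the change of genes of a few FPKM and so bears on which changes rank as largest, and the error beside each is its standard error. With 0.1 added in place of 1, Gfra1 went from -2.95 to -5.62. A level given as 1 value with ± is the mean and SD of 3 libraries without the inhibitor or 4 with it. "Rose" and "fell" are written only of genes past that adjusted p. Of 212 tested genes named under a fixed rule, 206 passed it, with adjusted p by limma from 7.07e-17 to 0.0383 and 198 under 0.001. The rule picks many genes for a large change past that limit, so these counts are no evidence in themselves.

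**Figure D2:**
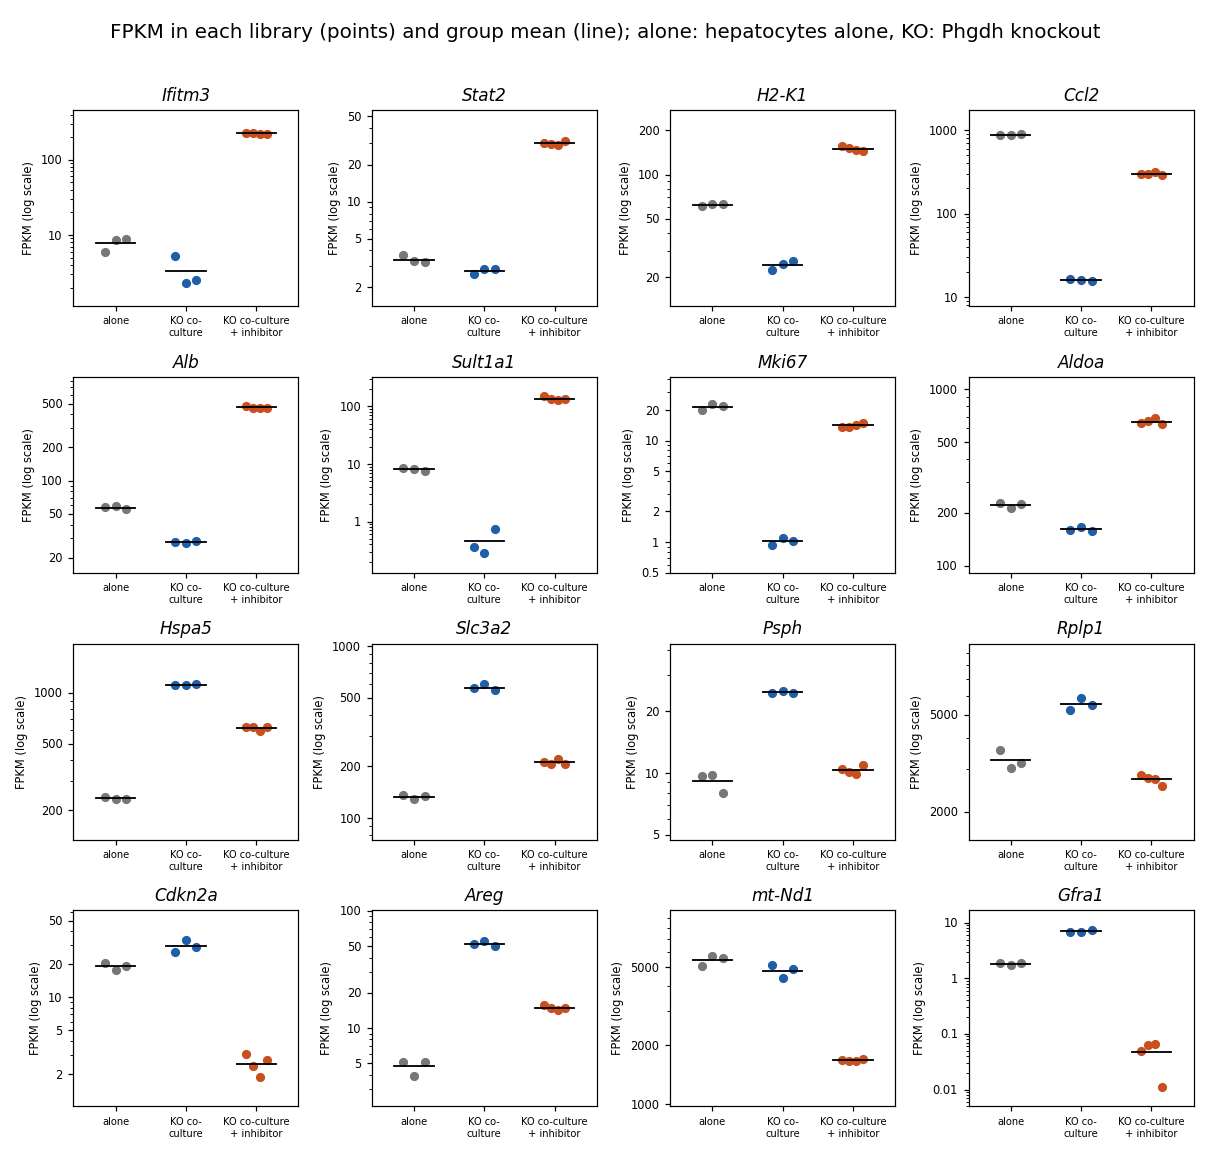
FPKM of 16 genes in each library of hepatocytes alone, Phgdh knockout co-culture and knockout co-culture with the inhibitor, on log axes that differ between panels; points are libraries and lines are group means. In every panel the 4 inhibitor libraries lie clear of the 3 without it, as for Ifitm3 (220.3 to 229 FPKM against 2.31 to 5.23) and Gfra1 (0.0110 to 0.0670 against 6.87 to 7.51). The genes shown were taken from the named ones, many of them chosen for a large change. Their separation is therefore largely a condition of the choice.

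Because so many genes passed, each gene group is set beside the share of all genes. The filter on mean level also admits genes through the group in which they are high, so several groups are counted a second time over members with at least 1 FPKM in hepatocytes alone, whose libraries are not in the comparison. Of the 10853 genes tested that met this limit, 3651 rose (33.6%) and 3903 fell (36.0%), with a median of -0.03. The gene lists were drawn up with earlier results of these data known, so their counts are descriptions and not independent evidence.

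**Figure D3:**
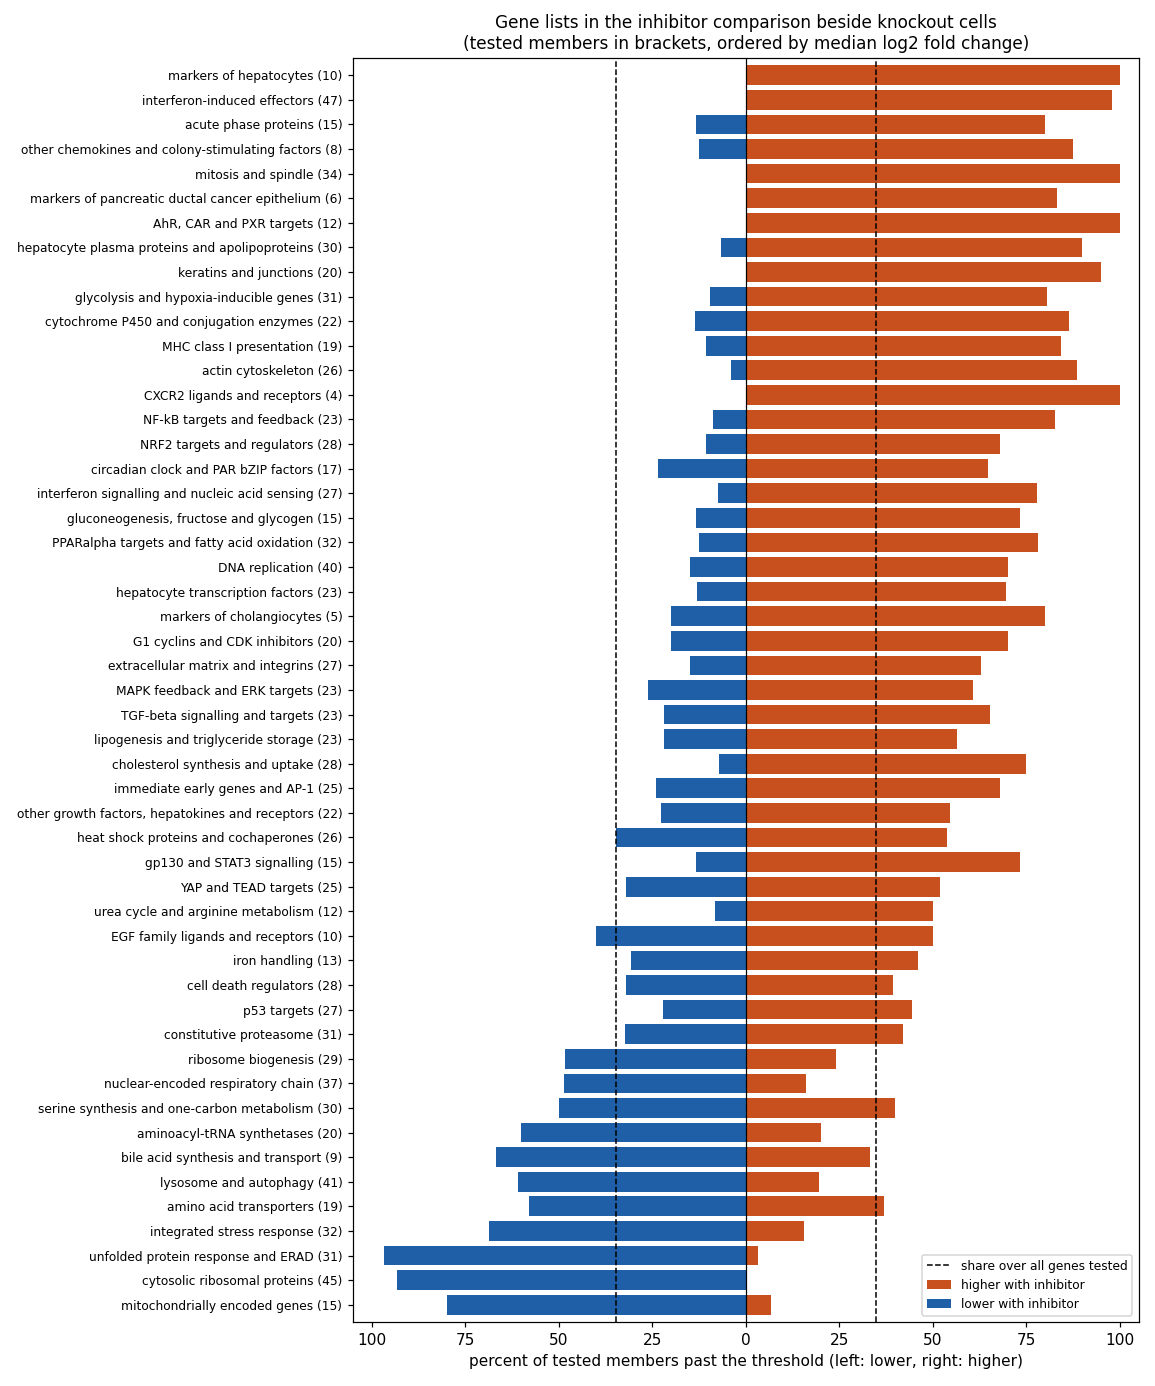
Percent of the tested members of each gene list that rose (right) or fell (left) with the inhibitor beside knockout cells, for the lists with at least 4 tested members, ordered by median log2 fold change; dashed lines mark the shares over all genes tested, 34.8% and 34.7%. Interferon-induced effectors and mitotic genes extend almost wholly to the right, and the unfolded protein response and cytosolic ribosomal proteins almost wholly to the left.

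Interferon-induced effectors, the proteins by which cells block viral replication, rose in all but 1 of the genes tested. Type I interferon acts through transcription factors, Stat2 and Irf9 among them, that bind a promoter element known as the ISRE. Of 54 effectors in the list, 47 were tested, 46 rose, 0 fell and 1 (Ifitm2, log2 fold change 0.12) did not pass; the median was 2.05. Among the 24 with at least 1 FPKM in hepatocytes alone, 23 rose, with a median of 1.74. Ifitm3, a membrane protein that hinders virus entry, read 5.23, 2.31 and 2.53 FPKM without the inhibitor and 225, 229, 222 and 220.3 FPKM with it, a log2 fold change of 5.75 ± 0.18. Ifit1, which binds foreign RNA ends, read 1.58, 1.41 and 1.69 FPKM without and 57.6, 55.0, 50.2 and 53.4 FPKM with the inhibitor (4.43 ± 0.09). Oas1a, a sensor of double-stranded RNA, went from 0.183, 0.201 and 0.206 to 19.4, 19.9, 20.01 and 18.4 FPKM (4.09 ± 0.06). In each of these 3 genes the lowest inhibitor library was more than 10 times the highest library without it. They were named for their large change, so a wide gap is in part a condition of the choice. Bst2, which tethers budding virus to the cell and was the most abundant member with the inhibitor, rose from 86.5 ± 9.81 to 244 ± 9.33 FPKM (1.49 ± 0.08).

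The promoters of 4 of these genes are printed because 48.6% of the effectors with a promoter in the reference table carried an ISRE core. The table (RefSeq, build GRCm38.p6) held promoters for 35 of the 47 tested effectors, and 17 of the 35 had the core, searched as GAAA, any 2 bases and GAAA on either strand, in the 250 bases before the start. Among all genes with a promoter in the table the share was 3.46%, and among the genes tested 3.15%. The 4 genes shown all had matches, whereas Ifitm3, described first above, had a promoter in the table but no match. A match says only that these letters are present. Isg15, a ubiquitin-like modifier shown for its 3 matches, rose from 3.48 ± 0.409 to 59.4 ± 5.91 FPKM. Each sequence runs 5′ to 3′ on the gene's own strand and ends at the base before the start, and capitals mark the matches, some of which overlap.
Isg15, chr4:156200819-156201068, minus strand: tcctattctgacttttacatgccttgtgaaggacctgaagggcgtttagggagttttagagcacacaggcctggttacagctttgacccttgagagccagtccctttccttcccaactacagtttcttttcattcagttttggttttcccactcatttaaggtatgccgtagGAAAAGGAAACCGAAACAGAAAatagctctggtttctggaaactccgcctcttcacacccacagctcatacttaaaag
Ifit1, chr19:34640639-34640888, plus strand: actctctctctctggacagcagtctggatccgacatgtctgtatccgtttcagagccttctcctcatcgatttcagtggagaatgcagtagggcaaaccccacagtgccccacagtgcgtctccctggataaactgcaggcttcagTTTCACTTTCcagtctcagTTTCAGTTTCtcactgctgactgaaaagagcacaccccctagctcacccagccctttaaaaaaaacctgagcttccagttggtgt
Oas1a, chr5:120907526-120907775, minus strand: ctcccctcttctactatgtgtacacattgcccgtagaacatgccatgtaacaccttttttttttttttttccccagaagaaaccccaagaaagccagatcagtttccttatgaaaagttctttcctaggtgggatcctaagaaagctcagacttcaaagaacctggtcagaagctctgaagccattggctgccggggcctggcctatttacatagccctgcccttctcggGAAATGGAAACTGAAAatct
Bst2, chr8:71537473-71537722, minus strand: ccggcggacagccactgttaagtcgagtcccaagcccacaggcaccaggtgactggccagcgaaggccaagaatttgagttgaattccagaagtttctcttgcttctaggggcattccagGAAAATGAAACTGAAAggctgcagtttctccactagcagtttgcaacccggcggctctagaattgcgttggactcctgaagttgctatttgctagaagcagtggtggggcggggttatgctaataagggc
Isg15 held 3 overlapping matches between 57 and 78 bases before its start, and Oas1a 2 between 5 and 20 bases before it. The 2 matches of Ifit1 were on the opposite strand, 76 to 104 bases before the start, and the 2 of Bst2 lay 115 to 130 bases before it.

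Other interferon-induced genes were among the largest increases of all. Trim30a, a ubiquitin ligase of the TRIM family, read 0.383, 0.2996 and 0.175 FPKM without the inhibitor and 36.3, 33.3, 34.5 and 36.5 FPKM with it (4.81 ± 0.08), and 0.0285, 0.305 and 0.107 FPKM in hepatocytes alone. Apol9b, a member of the apolipoprotein L family, rose from 1.02 ± 0.209 to 37.5 ± 1.22 FPKM (4.26 ± 0.14). Genes of interferon signalling and nucleic acid sensing moved less uniformly: of 27 tested, 21 rose and 2 fell, with a median of 0.52; of the 25 with at least 1 FPKM in hepatocytes alone, 19 rose and 2 fell (median 0.40). Stat2 read 2.55, 2.81 and 2.81 FPKM without and 30.4, 29.7, 28.9 and 31.2 FPKM with the inhibitor (3.06 ± 0.05), groups that lay far apart. Irf7, a transcription factor that amplifies the interferon response, rose from 1.19 ± 0.153 to 29.96 ± 1.14 FPKM (3.82 ± 0.07); it overlaps Phrf1, and without strand-specific counting their reads cannot be told apart. Ifih1, a sensor of long double-stranded RNA, rose by 2.05 ± 0.07. The members that fell were the DNA sensor adaptor Tmem173 (STING; -0.59) and the receptor subunit Ifngr1 (-0.16 ± 0.04), whose call was lost once chromosome medians were removed (-0.044, adjusted p = 0.420 by limma).

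Class I antigen presentation, by which cells display peptides to cytotoxic T cells, rose in 16 of 19 tested genes and fell in 2, with a median of 1.02. Over the 15 members with at least 1 FPKM in hepatocytes alone, 12 rose and 2 fell. B2m, the invariant light chain, read 608, 577 and 587 FPKM without the inhibitor and 1457, 1464, 1472 and 1442 FPKM with it (1.30 ± 0.04). H2-K1, a heavy chain, went from 22.5, 24.6 and 25.9 to 157, 153, 146 and 145 FPKM (2.58 ± 0.06), and all 4 inhibitor libraries also exceeded hepatocytes alone (61.0 to 62.9 FPKM). Psmb8, a subunit of the immunoproteasome, rose from 0.267 ± 0.0892 to 6.92 ± 0.287 FPKM. H2-Q4 rose by 2.16 ± 0.06, but the H2 genes are near-identical copies whose reads the counting may have split, so single H2 values are uncertain. The 2 members that fell were Calr and Pdia3, chaperones of the endoplasmic reticulum that load peptides and also belong to the unfolded protein response.

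Chemokines that bind CXCR2 were higher with the inhibitor, yet mostly below the level of hepatocytes alone. Of 11 ligands and receptors in the list 4 were tested, all ligands, and all 4 rose, with a median of 0.85. Cxcl1 read 2.00, 2.65 and 2.16 FPKM without the inhibitor and 11.1, 9.78, 12.996 and 13.5 FPKM with it (1.97 ± 0.10), against 79.9, 79.1 and 75.5 FPKM in hepatocytes alone. Cxcl5 read 1.43, 1.17 and 1.22 FPKM without it and 2.63, 2.20, 2.29 and 2.36 FPKM with it (0.57 ± 0.10), against 35.4 to 38.2 FPKM alone. Cxcl2 reached only 1.02 to 1.58 FPKM with the inhibitor (1.14 ± 0.10). Mif was the exception in level: it read 354, 385 and 362 FPKM in knockout co-culture, 481, 486, 482 and 477 FPKM with the inhibitor (0.39 ± 0.06) and 366 to 396 FPKM alone.

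Other chemokines and colony-stimulating factors rose in 7 of 8 tested genes, and Il34, a ligand of the macrophage growth factor receptor, fell; of the 7 with at least 1 FPKM in hepatocytes alone, 6 rose and 1 fell (median 1.58). Ccl2, the main attractant of monocytes, read 16.7, 16.2 and 15.5 FPKM without the inhibitor and 299.9, 297, 312 and 288 FPKM with it (4.13 ± 0.04), while hepatocytes alone read 868, 873 and 892 FPKM. Ccl7, which acts on the same receptor, rose from 0.395 ± 0.120 to 9.81 ± 0.250 FPKM (2.96 ± 0.09), and Cxcl10, an interferon-induced attractant of T cells, from 0.0547 ± 0.0501 to 3.15 ± 0.481 FPKM. Targets and feedback genes of NF-kB, the transcription factor behind many inflammatory genes, rose in 19 of 23 and fell in 2. The feedback inhibitors Tnfaip3 (2.35, 2.46 and 2.23 to 15.0, 14.7, 15.5 and 16.8 FPKM, 2.30 ± 0.05) and Nfkbia (8.88 ± 1.13 to 46.5 ± 1.36 FPKM, 2.27 ± 0.07) rose most. Tnfaip2 fell by 1.73 on the log2 scale, and Rela, a subunit of NF-kB itself and the most abundant member, did not pass (0.01 ± 0.04, adjusted p = 0.832 by limma); it lies on chromosome 19 and was 0.29 with chromosome medians removed (adjusted p = 1.65e-05).

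Acute phase proteins, which the liver releases in inflammation, rose in 12 of 15 tested genes and fell in 2 (Lcn2 and Apcs), with a median of 1.83; of the 12 with at least 1 FPKM in hepatocytes alone, 9 rose and 2 fell (median 1.5999). Hp, which binds free haemoglobin, read 1.66, 2.33 and 2.24 FPKM without and 56.9, 55.6, 54.7 and 49.1 FPKM with the inhibitor (4.17 ± 0.12), the latter just above the 43.3 to 47.8 FPKM of hepatocytes alone. The fibrinogen chains Fga (1.06 ± 0.180 to 29.1 ± 1.17 FPKM) and Fgb (1.61 ± 0.248 to 23.6 ± 0.790 FPKM) rose by 3.88 ± 0.08 and 3.24 ± 0.07, to above hepatocytes alone in all 4 libraries. C3, the central complement protein, rose from 65.1 ± 0.950 to 332 ± 7.43 FPKM (2.33 ± 0.03). In the gp130 and STAT3 list 11 of 15 rose and 2 fell; the kinase Pim1 rose by 3.26 ± 0.09, the receptor Il6ra by 1.15 ± 0.09, and the cytokine suppressor Socs2 fell from 6.59 ± 0.228 to 1.02 ± 0.1001 FPKM (-1.91 ± 0.07).

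Hepatocyte markers and plasma proteins were higher, while most tested genes of bile acid synthesis and transport were lower. All 10 tested hepatocyte markers rose, with a median of 2.78; of the 8 with at least 1 FPKM in hepatocytes alone, all 8 rose (median 1.83). Of the plasma protein and apolipoprotein genes, 27 of 30 tested rose while 2 fell (Rbp4 and Serpinf1). Over the 24 of those 30 with at least 1 FPKM in hepatocytes alone, 22 rose. Alb read 27.9, 27.0 and 28.4 FPKM without the inhibitor and 475, 454, 455 and 460.2 FPKM with it (4.01 ± 0.05, adjusted p = 3.60e-16 by limma), so that the inhibitor libraries stood above both other groups. Apoa1, the main protein of high-density lipoprotein, went from 0.359, 0.805 and 0.627 to 99.3, 100.98, 87.0 and 86.2 FPKM (5.89 ± 0.16), and Ahsg, a carrier that keeps calcium phosphate in solution, from 2.10 ± 0.377 to 68.7 ± 1.52 FPKM (4.50 ± 0.08). In the urea cycle and arginine list 6 of 12 tested genes rose and 1 fell, with a median of only 0.13. Its entry enzyme Cps1 read 0.257, 0.290 and 0.239 FPKM without the inhibitor and 17.7, 18.3, 14.5 and 15.0 FPKM with it (3.78 ± 0.08). In the bile acid list 3 of 9 tested genes rose and 6 fell, with a median of -0.28; of the 7 with at least 1 FPKM in hepatocytes alone, 1 rose and 6 fell (median -0.36). The 3 that rose were Akr1d1, a reductase of bile acid synthesis, the bile acid receptor Nr1h4 and its target Nr0b2, a repressor. Nr1h4 rose from 15.1 ± 0.332 to 64.1 ± 1.62 FPKM (2.01 ± 0.04) and Nr0b2 by 3.02 ± 0.12. Among 23 hepatocyte transcription factors tested 16 rose and 3 fell; of the 21 with at least 1 FPKM in hepatocytes alone, 14 rose and 3 fell (median 0.31). Cebpb did not pass (0.18 ± 0.12, adjusted p = 0.183 by limma).

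Enzymes that clear foreign compounds rose too. All 12 tested targets of the receptors AhR, CAR and PXR rose, with a median of 1.497, including all 7 with at least 1 FPKM in hepatocytes alone, whose median was 0.72. Abcb1a, a drug efflux pump, read 3.03, 3.03 and 3.20 FPKM without the inhibitor and 13.96, 15.8, 14.5 and 16.1 FPKM with it (1.98 ± 0.06). Cyp3a13, the most abundant member, rose by only 0.14 ± 0.05, a call lost without replicate 2 of the co-culture (adjusted p = 0.144 by limma) or without inhibitor replicate 1 or 4 (0.0554 and 0.0581). Cytochrome P450 and conjugation enzymes rose in 19 of 22 genes and fell in 3; of the 17 with at least 1 FPKM in hepatocytes alone, 14 rose and 3 fell (median 1.07). On the log2(FPKM + 1) scale the largest increase of any protein-coding gene was that of Sult1a1, a sulfotransferase, at 0.360, 0.283 and 0.735 FPKM without and 150.3, 133, 129.6 and 138 FPKM with the inhibitor (6.58 ± 0.10); it overlaps Sgf29, whose log2 fold change was 0.03. Without the added 1 the order differed: Cyp3a11, a P450 of drug metabolism, had a larger ratio of means, with 2 fragments in all 3 libraries without the inhibitor and 1467 in the 4 with it. Aldh1a1, which oxidises retinal and other aldehydes, went from 6.94, 6.97 and 7.93 to 169, 166, 157 and 155 FPKM (4.30 ± 0.06). Targets of the oxidative stress regulator NRF2 rose in 19 of 28 and fell in 3, among them Gclc, the rate-limiting enzyme of glutathione synthesis (123 ± 7.37 to 315 ± 11.5 FPKM, 1.35 ± 0.06).

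Glycolytic and hypoxia-inducible genes rose in 25 of 31 tested and fell in 3, with a median of 1.18; of the 27 with at least 1 FPKM in hepatocytes alone, 20 rose. Aldoa, which splits fructose bisphosphate, read 160.0, 166 and 158 FPKM without and 645, 658, 683 and 635 FPKM with the inhibitor (2.02 ± 0.05), against 211 to 228 FPKM alone. Bnip3, a mitophagy receptor and hypoxia target, went from 12.3, 11.2 and 12.7 to 85.0, 76.7, 89.9 and 94.1 FPKM (2.74 ± 0.08). Adm, a vasodilator peptide, and Egln3, an oxygen sensor, rose by 3.80 ± 0.12 and 3.27 ± 0.07. The 3 that fell were Pfkm, P4ha2 and Hif1a, the last being the oxygen-regulated subunit of the hypoxia factor, which is controlled mainly at the protein level. In gluconeogenesis, fructose and glycogen metabolism 11 of 15 rose and 2 fell, among them the glucose transporter Slc2a2 (6.36 ± 0.189 to 39.5 ± 0.941 FPKM, 2.46 ± 0.06).

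Fat metabolism moved the same way with smaller medians. Targets of PPARalpha, the fasting regulator of fatty acid oxidation, rose in 25 of 32 and fell in 4 (median 0.43); of the 27 with at least 1 FPKM in hepatocytes alone, 20 rose and 4 fell (median 0.37). Pdk4, which holds back glucose oxidation, rose by 3.05 ± 0.08. Genes of cholesterol synthesis and uptake rose in 21 of 28 and fell in 2, with a median of 0.31; Soat1, which esterifies cholesterol, fell from 16.01 ± 0.387 to 5.85 ± 0.328 FPKM (-1.31 ± 0.05). For lipogenesis and triglyceride storage the counts were 13 higher and 5 lower of 23. Acox2, a peroxisomal enzyme of bile acid synthesis, fell most of the bile acid list, from 142, 148 and 136 to 23.8, 23.3, 24.8 and 23.9 FPKM (-2.52 ± 0.05), still above the 10.9 to 11.2 FPKM of hepatocytes alone.

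Genes of cell division rose together. All 34 tested genes of mitosis and the spindle rose, with a median of 1.62 and a smallest change of 0.57 (Incenp), and all 34 had at least 1 FPKM in hepatocytes alone. Mki67, a mark of cycling cells, read 0.935, 1.10 and 1.03 FPKM without the inhibitor and 13.7, 13.6, 14.3 and 14.8 FPKM with it (2.90 ± 0.05), and Plk1, a mitotic kinase, 1.61, 1.249 and 1.49 FPKM without it and 14.8, 13.1, 15.6 and 14.9 FPKM with it (2.67 ± 0.09). Hepatocytes alone read higher still, at 20.04, 22.7 and 22.1 FPKM for Mki67 and 23.8, 22.7 and 21.5 FPKM for Plk1. DNA replication genes rose in 28 of 40 and fell in 6, with a median of 0.43; Rrm2, which makes deoxynucleotides, rose from 2.32 ± 0.216 to 9.75 ± 0.602 FPKM (1.70 ± 0.07). Of 20 tested G1 cyclins and kinase inhibitors 14 rose and 4 fell. Cdkn2a, which makes the inhibitor p16 and the p53 activator Arf, read 25.8, 33.4 and 29.0 FPKM without and 3.08, 2.35, 1.88 and 2.67 FPKM with the inhibitor (-3.12 ± 0.13), the largest decrease of any protein-coding gene on the log2(FPKM + 1) scale. As a ratio of means it fell 11.8-fold, and others, such as Gfra1 (148-fold), fell more. Its neighbour Cdkn2b read 42.7, 47.6 and 42.7 FPKM without it and 16.7, 17.5, 17.4 and 16.7 FPKM with it (-1.33 ± 0.06). The inhibitor Cdkn1a (p21), by contrast, rose from 39.6 ± 1.26 to 73.5 ± 1.77 FPKM. Cdkn2a and Cdkn2b lie on chromosome 4, whose genes had a median of 0.19. The sequence TTTGAA is the core of the CHR element found in many mitotic promoters. On either strand it was present in a promoter of 10 of 28 mitotic genes (35.7%). The same held for 1036 of 8319 genes tested (12.5%) and for 18.3% of all genes in the promoter table.

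Stress responses of the endoplasmic reticulum were lower. Of 31 tested genes of the unfolded protein response and of ER-associated degradation, 30 fell and 1 (the oxidase Ero1l, log2 fold change 0.48) rose, with a median of -0.68; all 31 had at least 1 FPKM in hepatocytes alone. Hspa5 (BiP), the main chaperone of the ER, read 1116, 1114 and 1135 FPKM without the inhibitor and 629, 628, 593 and 623 FPKM with it (-0.86 ± 0.04), against 241, 232 and 234 FPKM in hepatocytes alone. Hyou1, a partner of BiP, went from 124, 134 and 129 to 67.7, 66.3, 63.9 and 62.1 FPKM (-0.98 ± 0.04) and Pdia6, a disulfide isomerase, from 152 ± 4.62 to 77.8 ± 2.70 FPKM (-0.96 ± 0.05). Manf, a secreted ER protein, fell from 144 ± 10.8 to 68.1 ± 3.08 FPKM; it overlaps Rbm15b and Dcaf1. In all 4 genes the inhibitor libraries lay between the other 2 groups.

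Promoters of Hspa5 and Pdia6 are shown because both carry the ER stress response element, to which the sensor Atf6 is known to bind with NF-Y. Searched as CCAAT and CCACG with any 9 bases between them on both strands of the 250 bases before the start, it was present in 8 of the 25 listed genes with a promoter in the RefSeq table (GRCm38.p6; 32.0%) and in 0.13% of all genes in the table. Capitals mark the match.
Hspa5, chr2:34771840-34772089, plus strand: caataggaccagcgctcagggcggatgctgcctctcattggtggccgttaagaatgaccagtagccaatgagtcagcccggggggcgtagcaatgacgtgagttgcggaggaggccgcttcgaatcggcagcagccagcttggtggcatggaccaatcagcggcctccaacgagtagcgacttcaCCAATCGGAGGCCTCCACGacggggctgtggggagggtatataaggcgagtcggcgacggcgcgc
Pdia6, chr12:17266339-17266588, plus strand: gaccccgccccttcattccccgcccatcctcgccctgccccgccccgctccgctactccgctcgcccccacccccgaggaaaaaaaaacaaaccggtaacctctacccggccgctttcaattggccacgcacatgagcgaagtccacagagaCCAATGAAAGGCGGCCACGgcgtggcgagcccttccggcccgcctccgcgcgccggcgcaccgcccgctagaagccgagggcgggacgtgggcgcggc
The match lay 47 to 65 bases before the start of Hspa5 and 80 to 98 bases before that of Pdia6.

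The integrated stress response, the Atf4 programme set off by amino acid shortage or ER stress, fell in 22 of 32 tested genes and rose in 5, with a median of -0.45. Slc3a2, the heavy chain of several amino acid transporters, read 568, 599 and 556 FPKM without and 211, 208, 219.7 and 207 FPKM with the inhibitor (-1.44 ± 0.06), against 129.8 to 137 FPKM alone. Stc2, a secreted glycoprotein, fell from 21.8 ± 1.45 to 4.65 ± 0.246 FPKM (-2.01 ± 0.07). Ddit4, an inhibitor of mTORC1 that hypoxia also induces, went the other way, from 14.9 ± 2.21 to 61.4 ± 4.45 FPKM (1.98 ± 0.10). Aminoacyl-tRNA synthetases, several of them Atf4 targets, fell in 12 of 20 and rose in 4; Wars read 83.3, 86.4 and 88.3 FPKM without it and 34.1, 34.8, 32.2 and 31.7 FPKM with it (-1.35 ± 0.04), and Sars fell by 0.99 on the log2 scale. Amino acid transporters fell in 11 of 19 and rose in 7. The arginine transporter Slc7a2 rose from 0.406 ± 0.0167 to 12.8 ± 0.652 FPKM (3.29 ± 0.06).

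Genes of serine synthesis and one-carbon metabolism were split, with 12 of 30 higher and 15 lower (median -0.17), and the 3 enzymes of serine synthesis all fell. Phgdh fell by 0.37 on the log2 scale (SE 0.03). Psat1, the transaminase of the pathway, read 118, 116 and 117 FPKM without the inhibitor and 75.1, 74.0, 75.2 and 76.4 FPKM with it (-0.63 ± 0.05). Psph, the phosphatase of the last step, read 24.6, 25.2 and 24.6 FPKM without it and 10.51, 10.1, 9.86 and 10.9 FPKM with it (-1.19 ± 0.06), just above the 8.03 to 9.76 FPKM of hepatocytes alone; it overlaps Cct6a, whose log2 fold change was 0.02. The mitochondrial Shmt2 fell from 65.0, 75.4 and 63.3 to 40.5, 44.7, 42.7 and 39.5 FPKM (-0.68 ± 0.06), and the cytosolic Shmt1 rose from 14.7, 14.9 and 13.99 to 20.9, 18.5, 21.5 and 17.2 FPKM (0.40 ± 0.06). Psat1 lies on chromosome 19, whose genes had a median of -0.29, and Shmt1 on chromosome 11, with a median of -0.32; with chromosome medians removed their log2 fold changes were -0.35 and 0.71. The largest increases of the list were in enzymes that use glycine or serine: Gldc, of the glycine cleavage system, from 34.7 ± 1.83 to 126 ± 2.71 FPKM (1.84 ± 0.04), Cbs, of transsulfuration, from 5.26 ± 0.544 to 20.2 ± 1.41 FPKM (1.76 ± 0.06), and Gnmt, which methylates glycine, from 0.972 ± 0.374 to 8.45 ± 0.563 FPKM (2.28 ± 0.16). Cth, which follows Cbs in the same pathway, fell by 0.23 on the log2 scale.

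Genes of the translation machinery and of mitochondrial DNA were lower. Of 45 cytosolic ribosomal protein genes, 42 fell and 0 rose, with a median of -0.75; over the scalings tried 37 to 43 fell and at most 1 rose. Rplp1, a protein of the ribosomal stalk and the most abundant of them, read 5216, 5889 and 5472 FPKM without and 2836, 2756, 2719 and 2560.2 FPKM with the inhibitor (-1.02 ± 0.09), and Rps7 302, 319 and 312 FPKM without it and 145, 136, 134 and 136 FPKM with it (-1.17 ± 0.04). Ribosomal protein genes have many near-identical pseudogenes, so single values are uncertain. They are also short, and the median log2 fold change of all genes rose with gene length, from -0.15 among the shortest genes tested (2849 genes of up to 2333 bases) to 0.08 among the longest (2849 genes of 6401 bases or more). Eef1a1, the elongation factor that brings tRNAs to the ribosome, fell from 9037 ± 164 to 5752 ± 63.9 FPKM (-0.65 ± 0.04), but the call was lost under quantile normalization (-0.081, adjusted p = 0.313 by limma). Of 15 mitochondrially encoded genes 12 fell and 1 rose, with a median of -1.19, and over the scalings tried 9 to 12 fell. The complex I subunit mt-Nd1 read 5120.0, 4393 and 4929.8 FPKM without and 1681, 1657, 1670.5 and 1696 FPKM with the inhibitor (-1.52 ± 0.06), and the cytochrome oxidase subunit mt-Co1, the most abundant gene of the table that codes for a protein, 9722 to 11478 FPKM without and 5921 to 6833 FPKM with the inhibitor (-0.78 ± 0.10; -0.36 and adjusted p = 0.0592 by limma under quantile normalization). Under quantile normalization the falls of the most abundant genes were smaller (Rplp1 -0.25, mt-Nd1 -0.66, Hspa5 -0.46) and some rises larger (B2m 1.98, Krt18 1.61, Mif 0.70). Nuclear genes of the respiratory chain fell in 18 of 37 and rose in 6, with a median of only -0.15. Genes of lysosomes and autophagy fell in 25 of 41 and rose in 8; Sqstm1, the adaptor that delivers ubiquitinated cargo, read 573, 616 and 573 FPKM without it and 296, 299, 299.7 and 280.2 FPKM with it (log2 fold change -0.997), and Hexa, a lysosomal hydrolase, fell by 1.29 on the log2 scale.

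**Figure D4:**
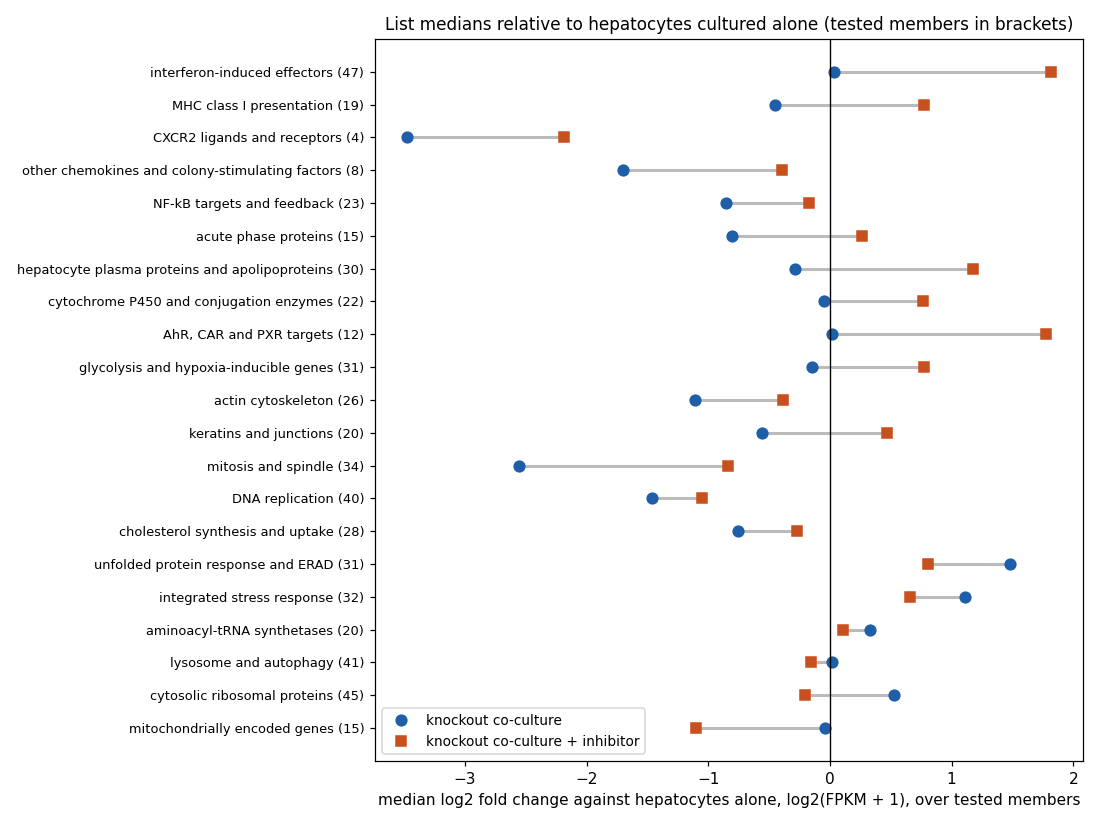
Median log2 fold change of each list against hepatocytes cultured alone, in knockout co-culture (circles) and in knockout co-culture with the inhibitor (squares); both share the libraries of hepatocytes alone. For interferon-induced effectors the square lies farther from the zero line than the circle (1.82 against 0.03). It lies between the circle and the line for mitotic genes (-0.84 against -2.56) and the unfolded protein response (0.80 against 1.48).

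Set beside hepatocytes alone, the inhibitor libraries were closer than the knockout co-culture for some lists and farther for others. The interferon-induced effectors had medians of 0.03 in knockout co-culture and 1.82 with the inhibitor, both against hepatocytes alone. For plasma proteins and apolipoproteins these were -0.28 and 1.18. For CXCR2 ligands they were -3.48 and -2.19, and for the integrated stress response 1.11 and 0.65. Both contrasts share the monoculture libraries, so no measure of their likeness is given.

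Cytoskeletal and epithelial genes were higher. Actin cytoskeleton genes rose in 23 of 26 and fell in 1, with Actb at 389.8, 389 and 379 FPKM without and 825, 836, 832 and 763 FPKM with the inhibitor (1.07 ± 0.04) and Actg1 rising from 169.8 ± 12.01 to 669 ± 27.9 FPKM (1.97 ± 0.06). Keratins and junction proteins rose in 19 of 20, with a median of 1.23; Krt19 read 21.9, 27.0 and 21.6 FPKM without and 195, 193, 206 and 187 FPKM with the inhibitor (3.01 ± 0.10), and Krt18, the main keratin of hepatocytes, 704 to 788 FPKM without and 1473 to 1580.3 FPKM with it (1.06 ± 0.06). Beside them stand the markers of pancreatic ductal cancer epithelium, of which 5 of 6 tested rose: Msln, a surface glycoprotein, from 176, 180.5 and 169.6 to 376, 359.9, 363 and 359.6 FPKM (1.05 ± 0.04), and Krt20 from 17.6 ± 0.205 to 77.0 ± 3.11 FPKM (2.07 ± 0.04). Msln and Krt19 were also read at 193 to 205 and 95.1 to 99.9 FPKM in hepatocytes alone, and Epcam, an epithelial adhesion protein, was under 0.1 FPKM in all 4 inhibitor libraries. Targets of YAP, a growth regulator that responds to cell tension, were split, with 13 of 25 higher and 8 lower; F3, the trigger of coagulation, rose from 2.86 ± 0.177 to 52.7 ± 2.29 FPKM (3.80 ± 0.05) and Ankrd1 from 7.23 ± 0.196 to 66.0 ± 2.14 FPKM (3.02 ± 0.04), while Axl did not pass (0.00 ± 0.03, adjusted p = 0.990 by limma). Among TGF-beta genes 15 of 23 rose and 5 fell; the receptor Tgfbr1 rose by 2.37 ± 0.07. In the matrix list 17 of 27 rose, among them Fn1 (fibronectin; 54.0 ± 0.669 to 223 ± 3.99 FPKM, 2.02 ± 0.03).

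Growth factor genes moved in both directions. Of 10 tested EGF family genes 5 rose and 4 fell: the ligands Areg (52.3, 55.2 and 50.5 to 15.7, 14.9, 14.2 and 14.9 FPKM, -1.75 ± 0.07) and Btc (24.9 ± 1.08 to 5.26 ± 0.599 FPKM, -2.06 ± 0.07) fell, and Errfi1, a feedback inhibitor of the EGF receptor, rose from 28.1 ± 0.526 to 99.3 ± 1.88 FPKM (1.79 ± 0.03). Dusp1, a phosphatase that switches off MAP kinases, rose by 3.08 ± 0.06. Igfbp1, a fasting-induced binding protein of insulin-like growth factors, rose by 2.44 ± 0.14, and the secreted Angptl6 fell from 27.1 ± 0.763 to 4.71 ± 0.3001 FPKM (-2.30 ± 0.13). The circadian regulators Per1 and Bhlhe40 rose by 2.43 ± 0.07 and 2.38 ± 0.05, and 11 of 17 tested clock genes rose and 4 fell.

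Heat shock proteins did not move as a group: 14 of 26 rose and 9 fell. The inducible Hspa1b read 0.615, 0.490 and 0.514 FPKM without the inhibitor and 53.8, 55.3, 51.2 and 44.7 FPKM with it (5.08 ± 0.09) and its neighbour Hspa1a 0.183, 0.0958 and 0.205 FPKM without it and 15.9, 15.0, 13.1 and 12.1 FPKM with it (3.69 ± 0.10); these near-identical copies may share reads, so their split is uncertain. Hsp90ab1, the most abundant member, rose by 0.41 ± 0.03. A heat shock element was searched as GAA, TTC and GAA with any 2 bases between each on either strand. It was found in a promoter of 2 of 20 genes of the list, the neighbours Hspd1 and Hspe1, against 0.445% of all genes tested. As either strand was searched, 1 site may count for both neighbours, which was not checked. These letters were not in the 250 bases before Hspa1a or Hspa1b.

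Past Cdkn2a, the genes that fell most on the log2(FPKM + 1) scale had means of 6.33 to 49.4 FPKM without the inhibitor. Gfra1, the receptor subunit for the glial factor GDNF, read 6.87, 6.95 and 7.51 FPKM without and 0.0501, 0.0640, 0.0670 and 0.0110 FPKM with the inhibitor (-2.95 ± 0.05). Htra1, a secreted serine protease, went from 13.1, 12.8 and 14.4 to 0.635, 0.748, 0.8288 and 0.502 FPKM (-3.11 ± 0.08), while Fgfr2, which it overlaps, changed by 1.57 in the other direction. Evl, which extends actin filaments, read 10.2, 13.1 and 11.2 FPKM without it and 0.622, 0.443, 0.343 and 0.471 FPKM with it (-3.09 ± 0.11). Fam19a5, a secreted brain peptide, Bex1, a neuronal adaptor, and Podxl, a sialylated surface protein, fell by 3.01, 2.96 and 2.78 on the log2 scale. Falls of 2.67 to 2.75 were seen for Nkain1, Cacna1h (a calcium channel), Cdsn (corneodesmosin), Ptprt (a receptor phosphatase) and Dbn1 (drebrin, which binds actin). These 12 genes, Cdkn2a included, were picked among genes in which all 4 inhibitor libraries lay below all 3 others. Their separation is therefore a condition of the choice and not a further result. Among long noncoding RNAs the largest increases on that scale were Gm6093 (0.0622 ± 0.0587 to 30.6 ± 1.95 FPKM), Gm36551 and AW112010, and the largest decreases D930028M14Rik, 2410006H16Rik (493 ± 73.0 to 151 ± 15.0 FPKM) and Gm40040. Gm36551 overlaps Pilrb1, which rose by 3.86, and 2410006H16Rik hosts 2 small nucleolar RNAs, so those reads cannot be told apart.

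The inhibitor effect beside knockout cells was then set against that beside wild-type cells, 2 contrasts that share no library. Beside wild-type cells 7584 genes passed (66.6%), 3821 higher (33.5%) and 3763 lower (33%), and 6872 genes changed in the same direction in both, which is 86.8% of the knockout calls and 90.6% of the wild-type calls, with 16 in opposite directions. Across the 11395 genes, which are not independent replicates, Pearson's r of both effects was 0.962. The difference of the effects was tested as an interaction in the same limma fit, and 93 genes passed (0.816%), 61 with a more positive effect beside knockout cells (0.535%) and 32 with a more negative one (0.281%); 1239 had an unadjusted p under 0.05. This count rested on single libraries: it fell to between 31 and 60 when any 1 of the 4 inhibitor libraries or 3 others of the knockout co-culture, replicates 2 or 3 of the wild-type co-culture, or any 1 of its 3 inhibitor libraries was left out, and rose to 120 without replicate 1 of the wild-type co-culture. Of the 20 named genes that passed, 8 did so with every single library left out: Atf3, Ccl2, Cyr61, Egr1, Fos, Fosb, Ifi207 and Jun.

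Immediate early genes, which growth and stress signals switch on within minutes, passed in 8 of 25 tested members (Fos, Fosb, Jun, Atf3, Egr1, Ier2, Ier3 and Csrnp1). All 8 had the more positive effect beside knockout cells, against 0.535% of all genes tested. The count was 6 to 10 with 1 library left out: Fos, Fosb, Jun, Atf3, Egr1 and Ier2 passed in each of 13 such fits, Ier3 in 3 and Csrnp1 in 1. By voom on recovered fragments Fosb did not pass (adjusted p = 0.181). Other lists, which can share genes with this one, also held more positive effects, such as p53 targets (4 of 27) and NF-kB genes (3 of 23). Egr1, a zinc finger factor, read 36.9, 38.3 and 39.8 FPKM without and 54.8, 54.6, 55.5 and 55.0 FPKM with the inhibitor beside knockout cells, and 71.3, 72.8 and 72.1 FPKM without and 44.9, 43.0 and 46.0 FPKM with it beside wild-type cells. It rose in the first pair (0.51 ± 0.03) and fell in the second (-0.68 ± 0.03), a difference of 1.19 ± 0.05 (adjusted p = 4.92e-09 by limma). Atf3, a stress-induced factor, fell from 31.8, 34.0 and 32.8 to 23.96, 24.1, 24.03 and 23.5 FPKM beside knockout cells and from 35.3, 32.9 and 31.6 to 11.1, 9.33 and 9.17 FPKM beside wild-type cells, a difference of 1.22 ± 0.08. Fos, a partner of Jun in AP-1, fell beside both, from 20.7, 20.2 and 21.6 to 2.22, 2.19, 2.99 and 3.12 FPKM and from 28.3, 30.1 and 31.8 to 1.64, 1.82 and 1.82 FPKM, and the difference was 0.89 ± 0.12. Jun rose beside knockout cells (14.3, 15.1 and 14.3 to 33.3, 32.2, 32.9 and 30.7 FPKM) and read 17.3, 20.3 and 18.9 FPKM without and 20.3, 22.1 and 20.9 FPKM with it beside wild-type cells (difference 0.93 ± 0.07). Without the inhibitor Egr1, Fos and Jun were higher in every library beside wild-type than beside knockout cells, while Atf3 overlapped. With it all 4 genes were higher in every library beside knockout cells.

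**Figure D5:**
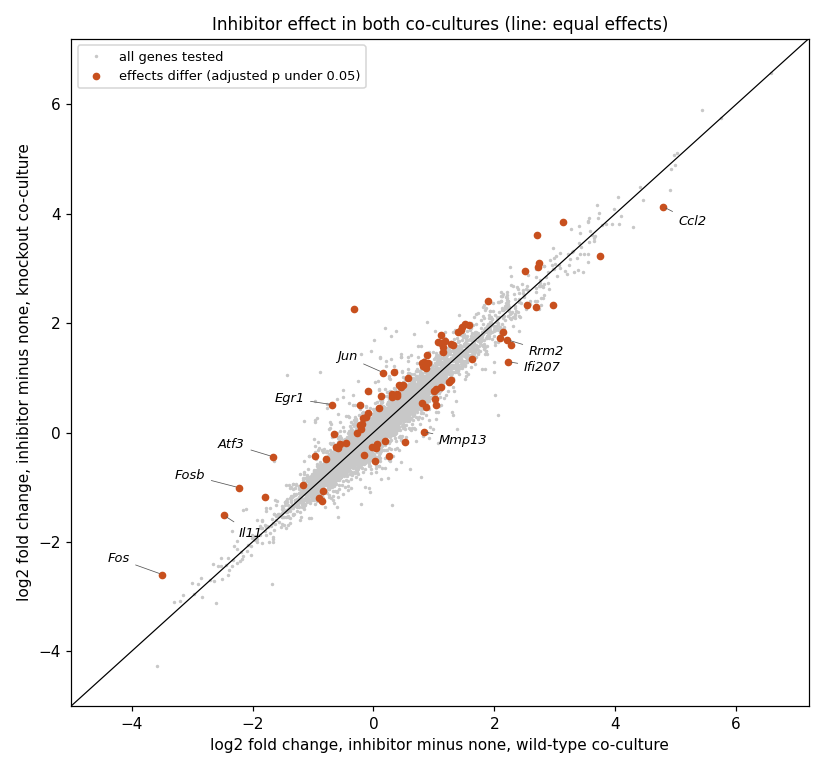
Log2 fold change with the inhibitor beside wild-type cells (horizontal axis) and beside knockout cells (vertical axis) for the 11395 genes tested; the line marks equal effects and larger points mark the 93 genes whose effects differed. Most genes lie along the line, and Egr1, Atf3, Jun, Fos and Fosb lie above it, while Ccl2 and Ifi207 lie below.

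Ccl2 and the interferon-induced Ifi207 went the other way. Ccl2 rose less beside knockout cells (4.13 ± 0.04) than beside wild-type cells (4.79 ± 0.05), a difference of -0.66 ± 0.06 (adjusted p = 1.18e-04 by limma). It read 8.73, 9.92 and 10.02 FPKM without and 288, 294 and 292 FPKM with the inhibitor beside wild-type cells. The genotypes lay apart without the inhibitor, higher beside knockout cells in every library, and overlapped with it. Ifi207, an interferon-inducible nuclear protein, rose by 1.29 beside knockout and 2.24 beside wild-type cells (difference -0.94 ± 0.15). Cyr61, a matrix protein and YAP target, rose more beside knockout cells, by 2.96 against 2.51. None of the 4 CXCR2 ligands passed the test of this difference. Of the 47 tested interferon-induced effectors 2 passed it, both with the more negative effect beside knockout cells, against 0.281% of all genes tested. All 47 rose beside wild-type cells.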

How the data were processed

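RNA was extracted on columns (RNeasy) from 16 libraries, of which 7 were compared, per the labels' protocols. The authors deposited FPKM per gene; the submitters' processing notes name HISAT2 and GRCm38 (mm10), and the counter is not named. Fragments recovered from the FPKM steps (all values whole within 0.1) gave about 15000000 to 21300000 per library. Of 54532 gene IDs, 54409 matched GENCODE M21, and 98.3% of these at the same coordinates.

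Differences were tested with limma 3.58.1 (R 4.3.3) on log2(FPKM + 1) for genes with a mean of at least 1 FPKM, with 1 mean per group over all 16 libraries (11 residual degrees of freedom), a trended prior and Benjamini-Hochberg adjustment over 11395 genes. The scripts were tested on simulated data. The comparison and 55 gene lists were chosen with earlier results of these data known. Genes named were a fixed few (Phgdh, Psat1, Psph, Shmt1, Shmt2, Cxcr1, Cxcr2, Mif, Alb), the 12 protein-coding genes of largest change each way, up to 3 genes of largest change and the most abundant one per list, the 5 largest differences between genotypes each way, the 3 long noncoding RNAs of largest change each way and the 5 most abundant genes; a few of these genes are not reported here. The 12 each way had to pass the adjusted p, with libraries that did not overlap between both groups. The genes of largest change per list and the long noncoding RNAs also had to pass it. The 5 differences each way had to pass the interaction test. Further genes, such as Isg15, Cdkn1a and Cth, were chosen after their values were seen. Alternatives were other filters, pseudocounts and scalings, voom on fragments, the replicate block and leaving out each library. Promoters came from RefSeq (GRCm38.p6), as the 250 bases before the start. Replicate numbers did not pair the libraries and were not used as a block.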

Additional observations from a re-analysis of the deposited data

Results flagged for a closer look

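In 7 of 217 groups of 4 libraries, 1 inhibitor library beside knockout cells stood apart from the other 3 by more than Dixon's 95% critical value, which chance exceeds in about 1 group in 20. Replicate 4 did so in 4 of them: Actb read 763 FPKM there against 825 to 836 in the others, Cox6a1 145 against 172 to 175, Rpl23 166 against 214 to 223, and Eef1a1 5847 against 5713 to 5724. Replicate 1 stood apart for Plat (20.7 FPKM against 22.1 to 22.3) and Atp5a1 (272 against 262 to 263), and replicate 3 for H2-Q4 (14.2 against 15.3 to 15.5). All 7 genes kept their direction and their call with any 1 of the 7 libraries left out.

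The effect of the inhibitor differed between the genotypes, by the interaction term of the limma fit, in 20 of the genes named, with adjusted p from 4.92e-09 to 0.0476. Given as the log2 fold change beside knockout cells minus that beside wild-type cells, the differences were positive for Atf3 (1.22), Fosb (1.22), Egr1 (1.19), Il11 (0.96), Jun (0.93), Fos (0.89), Slc38a3 (0.53), Csrnp1 (0.46), Cyr61 (0.45), Abcb1a (0.40), Gsdmd (0.34) and Ankrd1 (0.30). They were negative for Ifi207 (-0.94), Mmp13 (-0.82), Lmcd1 (-0.70), Adcy9 (-0.68), Ccnb1 (-0.68), Ccl2 (-0.66), Rrm2 (-0.52) and C3 (-0.21). Il11, a cytokine of the gp130 family, changed by -1.51 beside knockout and -2.48 beside wild-type cells. Of the 20 differences, 8 passed in each of 13 fits with 1 library left out.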

How the results depend on the processing

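The count of 7916 changed genes stayed within 1.5 times under every filter on low values, scaling and pseudocount tried (5571 to 9425), while a threshold of at least 2-fold left 1242. The share of genes that passed depended on the filter. It was 69.5% of 11395 genes as reported, 73.4% of 7586 with a mean of at least 5 FPKM and 34.8% of 27086 with no filter. With a mean of at least 5 FPKM required, 2574 genes were higher, 498 genes were higher at least 2-fold and 231 lower at least 2-fold, and voom on recovered fragments gave 559 lower at least 2-fold. Leaving out 1 library gave 7413 to 7697 changed genes. Quantile normalization moved the share of higher genes among those called from 50.1% to 43.4%, and scaling without mitochondrial and the 50 most abundant genes to 54.5%. Removing chromosome medians, an alternative chosen after seeing the data, left 7648 changed genes and gave Ccng1 0.032, Axl -0.11, Ltbp3 0.025 and Mmp13 -0.017, each of opposite sign to its main value. Mmp13 was -0.17 under quantile normalization. With 1 library left out Rela ran from -0.036 to 0.038, Axl from -0.018 to 0.022 and Mmp13 from -0.037 to 0.075. Why these genes changed sign was not tested. Of 3996 values for named genes under alternatives, 3950 kept direction and side of the threshold. Many of these genes were chosen for a large change past the threshold, so their calls had little room to change.

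The count of genes that differed between genotypes was 93 as reported, 55 with no filter on low values (more genes tested), 41 with only the libraries compared (fewer libraries) and 31 to 120 with 1 library left out. Same-numbered libraries did not deviate together (r = 0.0169, 0.0906 and -0.0731), so the replicate number was not taken as a pairing. With a replicate block the changed genes were 7688, the differing genes 34 and Mmp13 -0.026. Depth limits mostly genes of a few FPKM or less; Cxcr2 was close to undetected.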

Other observations

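A set of 13 genes, picked after their values were seen, was under 0.1 FPKM in all 9 libraries without the inhibitor and above 1 FPKM in all 7 with it, beside either genotype, and 0 genes did the reverse. They were Arhgef16, Bst1, Cd36, Galnt15, Kazn, Oas1g, Oas2, Rnf144b, Rsad2, Sntb1, Thsd4, Tmem35a and Tmprss6. Rsad2 (viperin), Oas2 and Oas1g are interferon-induced, Cd36 takes up fatty acids, and Tmprss6 is a hepatocyte protease that lowers hepcidin. Cd36 reached 1.94 to 4.09 FPKM and Thsd4 3.68 to 4.14 FPKM in the inhibitor libraries. These genes are spread over chromosomes 4, 5, 9, 12, 13, 14, 15 and X.

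Summed over 4 Y-linked genes (Ddx3y, Uty, Kdm5d and Eif2s3y), the level was 0.113 to 0.404 FPKM in the 9 mouse libraries without the inhibitor and 0 to 0.0629 FPKM in the 7 with it, and Xist stayed at or below 0.0220 FPKM in all 16. Of 122 tested long intergenic noncoding RNAs, 49 rose and 30 fell with the inhibitor beside knockout cells. Of 576 processed pseudogenes tested, 66 rose and 162 fell. Over all genes tested 34.8% rose and 34.7% fell, and the pseudogenes lay below both shares.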
